A study of Homo sapiens with 6 samples.

Results

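Cytosolic ribosomal protein genes were taken by symbol in the deposited tables, after the naming of the 2 ribosomal subunits. Symbols were RPL or RPLP with a number for the large subunit, and RPS with a number or RPSA for the small subunit. At most a letter (A, X or L) and a digit could follow the number. This rule found 84 of 60666 listed genes, 52 of the large and 32 of the small subunit. The 84 genes comprised 77 standard members and 7 paralogs whose symbols end in L or L1 (RPL3L, RPL7L1, RPL10L, RPL22L1, RPL26L1, RPL39L and RPS27L). RNA-seq was performed on untreated HCT116 cells, a human colorectal carcinoma line labelled wild type, and on DNMT3B KO cells, an untreated derivative of the same line in which DNMT3B was knocked out. Each line was represented by 3 libraries of polyadenylated RNA with 55436267 to 68274783 estimated counts. The knockout is 1 derived line, and separate cultures are not stated for the libraries of a line, so that the spread behind each p-value is that of these samples alone and may be technical.

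Ribosomal proteins coat the ribosomal RNA of the subunits that translate all nuclear mRNAs, and their genes are among the most highly transcribed in proliferating cells. Their mRNAs typically begin with a pyrimidine tract at the cap, the 5′ terminal oligopyrimidine (TOP) tract, through which the mTOR pathway and the RNA-binding protein LARP1 control them together. Free ribosomal proteins also act outside the ribosome, and several, RPL5, RPL11 and RPL23 among them, can bind MDM2, the ubiquitin ligase that degrades p53. Most members have a single active gene but many processed pseudogenes, while a few have a second expressed copy.

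The start of transcription was examined first because it carries the signal these genes share. RefSeq promoters (GRCh38.p14, 250 bases before to 50 bases after the annotated start) were matched by symbol for 67 of the 84 genes. A tract was counted where a C within 5 bases of an annotated start opened a stretch of at least 5 pyrimidines (C or T), on the transcribed strand. Pyrimidines before that C were not considered, so a tract can be part of a longer run, as in RPL14 and RPS7 below. Such a tract was present in 54 of 67 genes (80.6%), against 25.2% of 27305 genes with a promoter in the table. The windows below run from 15 bases before to 15 bases after the start and show genes to which the comparison returns, with the tract in capitals.
RPL3 (chr22:39319609-39319638, minus strand): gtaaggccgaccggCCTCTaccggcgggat
RPL14 (chr3:40457324-40457353, plus strand): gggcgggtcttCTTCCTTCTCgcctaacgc
RPS16 (chr19:39435935-39435964, minus strand): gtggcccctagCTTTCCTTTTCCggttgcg
RPS7 (chr2:3575245-3575274, plus strand): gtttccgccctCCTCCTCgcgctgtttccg
RPS27 (chr1:153990747-153990776, plus strand): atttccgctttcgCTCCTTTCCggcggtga
RPS27L (chr15:63157463-63157492, minus strand): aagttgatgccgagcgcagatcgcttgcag
RPL22 (chr1:6199581-6199610, minus strand): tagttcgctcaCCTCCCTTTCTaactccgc
RPL22L1 (chr3:170870181-170870210, minus strand): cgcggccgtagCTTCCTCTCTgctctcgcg
RPL7L1 (chr6:42879601-42879630, plus strand): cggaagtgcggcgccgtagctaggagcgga
Of the paralogs, RPL22L1 held a tract like its parent RPL22, whereas no tract was found in these windows for RPS27L and RPL7L1, nor at either start of RPL26L1 or for RPL10L.

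Other promoter sequences were counted on both strands of the full windows. CCGGAA, the core bound by ETS family factors, was present in 58.2% of the 67 genes and in 20.1% of all genes with a promoter. AAGATGG, the core of the YY1 motif, was found in 9 genes (13.4%, against 7.11%). TGACGTCA, the cAMP response element, was found in 3 genes (4.48%, against 2.25%) and TATAAA, the TATA box, in 7 genes (10.4%, against 14.0%). Palindromic motifs of 10 bases were searched for BANP, a factor that binds unmethylated CpG-containing sites, and for NRF1, and were found in 4 genes (5.97%, against 0.505%) and 1 gene (1.49%, against 1.52%). These promoters were rich in CpG, with a median of 25 CpG dinucleotides per 300 bases, against 14 over all genes. The letters were searched without alignment, and a match does not show that a factor binds.

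Before the comparison, the libraries were checked. DNMT3B, the targeted gene, fell to 7.62% of its HCT116 level (log2 fold change -3.71 with a standard error of 0.15, and an adjusted p = 2.5e-06 in edgeR). Of 12 colorectal epithelial markers, 9 were expressed highly enough to be tested, of which 6 fell, VIL1 rose and EPCAM and CDX2 did not pass, while CDX1, CDH17 and LGALS4 were at most 0.134 CPM. Their summed level was 4486 to 5329 CPM in HCT116 against 2137 to 2324 CPM in DNMT3B KO cells, and its part in the results below was not tested. The lists of fibroblast, immune and blood, and endothelial markers had 2 of 8, 4 of 8 and 2 of 6 members tested and summed to 0.674 to 22.7 CPM in any library, with the leukocyte marker PTPRC at most 0.335 CPM. The mitochondrially encoded genes took 3.57 to 4.01% of HCT116 counts and 3.74 to 5.41% of those in DNMT3B KO cells. HCT116 replicate 2 stood apart in the ribosomal protein genes: of 82 tested members, 77 were higher there than in both other HCT116 libraries, with a median of 121% of their mean, while 44.7% of all tested genes were highest in that library.

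Summed ribosomal protein mRNA was lower in every DNMT3B KO library than in any HCT116 library after TMM scaling (trimmed mean of M-values, which aligns the bulk of genes between libraries). Summed over the 84 genes, levels were 79825, 99025 and 83145 CPM in HCT116 replicates 1, 2 and 3 and 67520, 72711 and 72073 CPM in DNMT3B KO replicates 1, 2 and 3 (CPM are counts scaled to a common library size). The mean was 87332 ± 10262 CPM (SD, n = 3) in HCT116 and 70768 ± 2831 CPM (SD, n = 3) in DNMT3B KO cells, a difference of -0.30 on the log2 scale (exact permutation test, two-sided, p = 0.1, the smallest that 3 against 3 libraries can give). Without HCT116 replicate 2, the mean of the other HCT116 libraries was 81485 CPM and the DNMT3B KO level 86.8% of HCT116, in place of 81.4%. The size of the difference depended on the scaling. As a plain share of the library, members took 7.77, 9.72 and 7.56% of counts in HCT116 and 7.20, 7.70 and 7.33% in DNMT3B KO replicates 1, 2 and 3. On that scale the groups overlapped, and the log2 difference was -0.16 (exact permutation test, two-sided, p = 0.2). RNA per cell was not measured, so these are shares of mRNA and not amounts per cell.

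**Figure D1:**
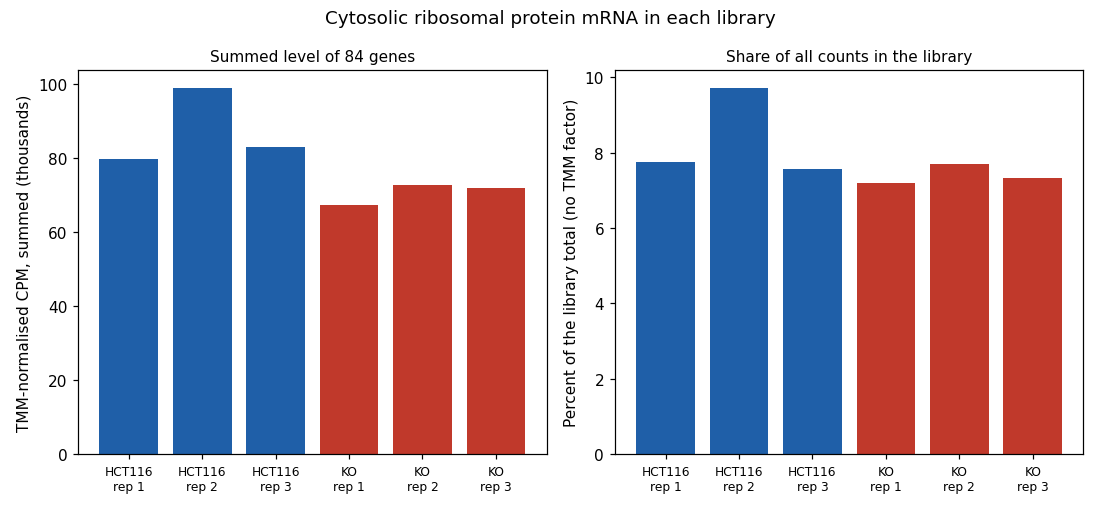
Summed level of the 84 ribosomal protein genes per library (3 blue bars for HCT116, 3 red bars for DNMT3B KO), as TMM-normalised CPM (left) and as percent of the library total with no TMM factor (right). On the left, the DNMT3B KO libraries (67520 to 72711 CPM) lie below the HCT116 libraries, while on the right DNMT3B KO replicate 2 (7.70%) lies above HCT116 replicate 3 (7.56%).

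The levels of both subunits were lower in all DNMT3B KO libraries. The large subunit summed to 53478 ± 6162 CPM in HCT116 against 42819 ± 1305 CPM in DNMT3B KO cells (SD, n = 3), and the small subunit to 33854 ± 4101 and 27950 ± 1672 CPM. The ratio of large to small subunit counts was 1.57 to 1.59 in the HCT116 libraries and 1.58, 1.47 and 1.56 in DNMT3B KO replicates 1, 2 and 3 (exact permutation test of the log2 ratio, two-sided, p = 0.2). The low ratio of DNMT3B KO replicate 2 went with small subunit genes such as RPS3A, whose level was 2209 CPM there and 1572 and 1875 CPM in DNMT3B KO replicates 1 and 3. Only 10.0% of the 50-base stretches of RPS3A are unique, meaning that they occur in the canonical transcript of the gene and in no annotated transcript of another gene, so its counts are uncertain.

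Gene by gene, 82 members passed the filter on low counts, and RPL10L and RPL39L did not. Of the 82, 25 fell, 0 rose and 57 did not pass an adjusted p under 0.05 (quasi-likelihood test of edgeR, over all 16959 tested genes). At an unadjusted p under 0.05, 45 members were lower and 1 higher, with no share of all genes taken at that threshold to set beside them. The Wald test of DESeq2 called 39 of 83 members lower (47%) and 0 higher. In that test 10.1% of all genes were lower, but of 30062 genes without the filter on low counts, which is unlike the edgeR background. Over all genes tested in edgeR, 28.1% were called at an adjusted p under 0.05, 15.1% lower and 12.9% higher. The share of members called was thus near the background while the share called lower (30.5%) was above it. The fitted log2 fold change was below 0 for 79 of 82 members, against 50% of all tested genes, and its median was -0.28, against -0.00 over all genes. In 60 members all DNMT3B KO libraries lay below all HCT116 libraries, against 22.6% of tested genes, and in 1, RPL3L, all lay above, against 23.3%. The number called depended on the libraries: 5, 7 and 6 members were called lower without DNMT3B KO replicates 1, 2 and 3, which is 6.10, 8.54 and 7.32% of members against 10.5, 10.2 and 10.1% of all genes in those fits. Without HCT116 replicate 1 the count was 15 (18.3% against 10.5% of all genes), and without HCT116 replicate 2, the high library, it was 25 (30.5% against 17.6%). With upper-quartile scaling, which moved the median of all genes to 0.08, it was 10, so that the share of members called lower (12.2%) was no longer above that of all genes (12.3%). The median of the members stayed between -0.36 and -0.20 in all 13 alternative fits.

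**Figure D2:**
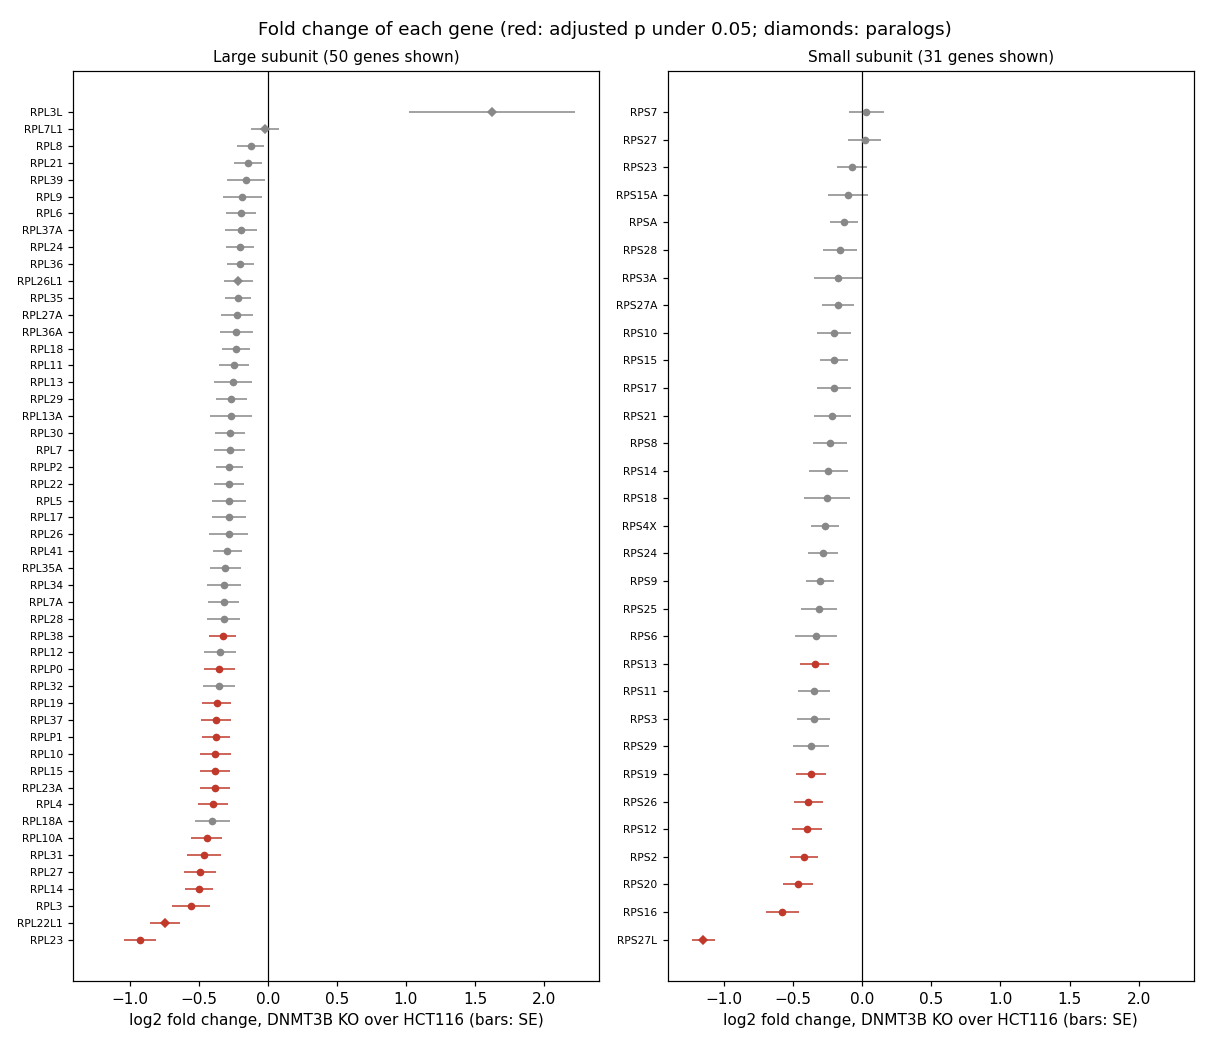
Log2 fold change of DNMT3B KO over HCT116 with its standard error for the 50 tested large subunit genes and 31 of the 32 tested small subunit genes, ordered by size; red points have an adjusted p under 0.05 and diamonds are paralogs. Nearly all points lie between -0.6 and 0, with RPL23, RPL22L1 and RPS27L lower and the barely expressed RPL3L at 1.62.

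Members called lower were found in several structural groups of the ribosome. Of the 46 tested standard large subunit genes, 15 fell (32.6%) and 31 did not pass (median log2 fold change -0.29). Of the 31 standard small subunit genes, 8 fell (25.8%) and 23 did not pass (median -0.27), while 15.1% of all tested genes fell. The 3 genes of the stalk that recruits translation factors, RPLP0, RPLP1 and RPLP2, had log2 fold changes of -0.35, -0.37 and -0.28 (standard errors 0.11, 0.10 and 0.10, adjusted p = 0.049, 0.029 and 0.068 from edgeR). RPL5 and RPL11, which join 5S rRNA in a particle that also inhibits MDM2, did not pass, with log2 fold changes of -0.28 and -0.24 (adjusted p = 0.13 and 0.14 from edgeR). RPL11 was 794, 956 and 836 CPM in HCT116 against 686, 721 and 780 CPM in DNMT3B KO cells, so that the groups lay close but did not overlap. Of 5 proteins that line the peptide exit tunnel, RPL4 and RPL23A fell, and of 5 at the mRNA entry and decoding side of the small subunit, RPS2 and RPS20 fell, with medians of -0.28 and -0.35. Of 18 genes mutated in Diamond-Blackfan anaemia, an inherited failure of red cell production, 5 fell (27.8%) and 13 did not pass (median -0.28). At the other end of the range, apart from the barely expressed RPL3L, were RPS7 and RPS27, with log2 fold changes of 0.03 and 0.02 (adjusted p = 0.90 and 0.93), and the groups overlapped in both. These differences are too small to have a direction, and that of RPS27 turned negative with TMM without ribosomal protein genes and in 4 of the 6 fits that leave out a library, and that of RPS7 in 3 of those 6.

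RPL23, a large subunit protein that can also bind MDM2, was the standard member with the largest decrease. Its levels were 708, 898 and 769 CPM in HCT116 replicates 1, 2 and 3 and 399, 403 and 450 CPM in DNMT3B KO replicates 1, 2 and 3. The highest DNMT3B KO library was thus well below the lowest HCT116 library, and the log2 fold change was -0.92 (standard error 0.12, adjusted p = 0.00083 from edgeR). The gene lies on chromosome 17 from 38847860 to 38853764 (hg38, minus strand), and 96.0% of the 50-base stretches of its canonical transcript of 2706 bases are unique, against 87.1% in its shortest coding transcript of 444 bases. RPS16, a small subunit protein with a tail near the decoding site, was 848, 1070 and 867 CPM in HCT116 against 591, 653 and 622 CPM in DNMT3B KO cells (log2 fold change -0.58, standard error 0.12, adjusted p = 0.0081). RPL14, another large subunit protein, was 849, 994 and 958 CPM in HCT116 against 636, 654 and 693 CPM in DNMT3B KO cells (log2 fold change -0.50, standard error 0.10, adjusted p = 0.0078). In both genes every DNMT3B KO library lay below every HCT116 library. These 3 genes and the paralogs RPS27L and RPL22L1 were the 5 members called in all 14 fits run. The other 20 calls were lost when at least 1 library was left out. How many of all tested genes were called in every fit was not counted, so these 5 have no background beside them. In the fits without 1 DNMT3B KO replicate, 6.10 to 8.54% of members were called lower, against 10.1 to 10.5% of all genes.

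Further members among the 10 with the largest called decrease, leaving aside paralogs and their parent genes, included RPL27, RPS20, RPL31, RPL10A, RPS2 and RPS12, with log2 fold changes from -0.49 to -0.40. RPS2, which lies at the mRNA entry channel, was 3240, 3633 and 3444 CPM in HCT116 against 2461, 2577 and 2653 CPM in DNMT3B KO cells. RPL3, which reaches the peptidyl transferase centre, was 2676, 3509 and 2617 CPM in HCT116 against 1950, 1973 and 2068 CPM in DNMT3B KO cells (log2 fold change -0.56, standard error 0.14, adjusted p = 0.018). Its HCT116 replicate 2 value stood above the others, and the call was lost in 3 of the 6 fits that leave out a library.

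**Figure D3:**
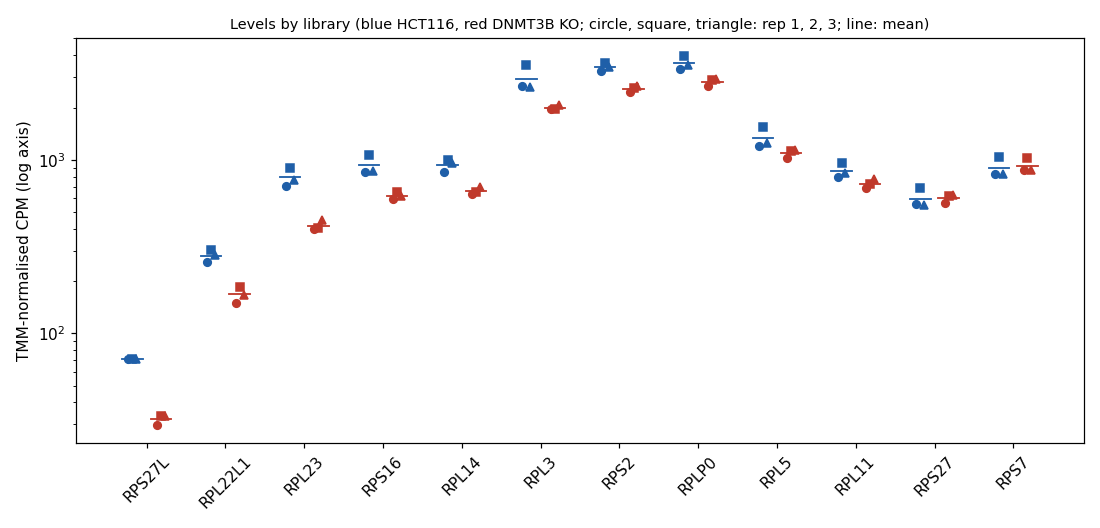
TMM-normalised CPM on a log axis for 12 ribosomal protein genes, with 1 point per library (circle, square and triangle for replicates 1, 2 and 3; blue for HCT116, red for DNMT3B KO), means being drawn as lines. The groups are apart for RPS27L, RPL22L1, RPL23, RPS16 and RPL14, close for RPL5 and RPL11 and overlapping for RPS27 and RPS7, and the blue square (HCT116 replicate 2) is often the highest point.

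Expressed as shares of the ribosomal protein mRNA of the same library (a measure on which TMM scaling has no effect), the members differed from each other. RPL23 made up 0.887, 0.907 and 0.925% of the summed CPM of the 84 genes in HCT116 and 0.592, 0.554 and 0.624% in DNMT3B KO cells. RPS16 made up 1.06, 1.08 and 1.04% and 0.876, 0.898 and 0.864%. In the other direction, RPS7 made up at most 1.051% in the HCT116 libraries and 1.288, 1.403 and 1.204% in DNMT3B KO cells, and RPS27 0.696, 0.694 and 0.658% and 0.835, 0.856 and 0.866%. The lines did not overlap in any of these 4 genes on this scale, although a share can differ without any change in the CPM of the gene itself. These 4 genes were picked from the ends of the range of fold changes in the same data, so their separation is not a separate result. Other members were also apart, such as RPL8 (2.38 to 2.63% in HCT116 against 2.78 to 2.93% in DNMT3B KO cells). How many of the 84 genes were apart on this scale was not counted. RPS7, with 35.0% unique 50-base stretches, and RPS27, with 32.01%, share much of their sequence with other annotated transcripts, so their counts are uncertain.

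**Figure D4:**
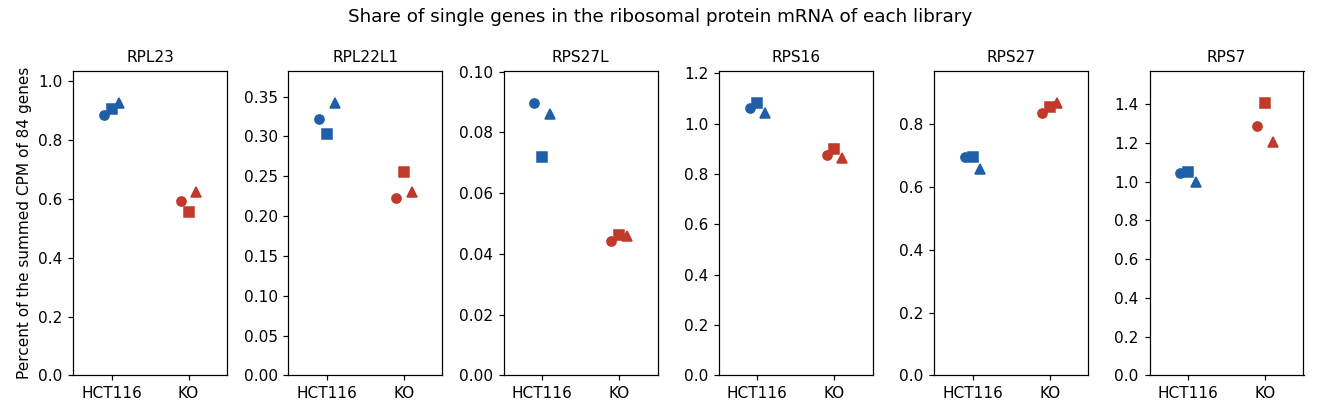
Percent of the summed CPM of the 84 ribosomal protein genes taken by each of 6 genes, with 1 point per library (circle, square and triangle for replicates 1, 2 and 3; blue for HCT116, red for DNMT3B KO). RPL23, RPL22L1, RPS27L and RPS16 take a smaller share in every DNMT3B KO library, and RPS27 and RPS7 a larger share, with RPS27 going from 0.658 to 0.696% to 0.835 to 0.866%.

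Among the paralogs, RPS27L and RPL22L1 fell, RPL7L1, RPL26L1 and RPL3L did not pass, and RPL10L and RPL39L were not tested. RPS27L, a paralog of RPS27 whose gene is a known target of p53, was 71.5, 71.2 and 71.4 CPM in HCT116 replicates 1, 2 and 3 and 29.8, 33.6 and 33.2 CPM in DNMT3B KO replicates 1, 2 and 3. The HCT116 libraries were nearly equal here, including replicate 2, and the log2 fold change, -1.15 with a standard error of 0.08 (adjusted p = 5.5e-05, edgeR), was the lowest of the 82 members. RPS27L lies on chromosome 15 from 63125872 to 63158021 (hg38, minus strand), and 97.5% of its 50-base stretches are unique. RPS27L counts were 12.9, 10.4 and 13.1% of RPS27 counts in the HCT116 libraries and 5.29, 5.39 and 5.32% in the DNMT3B KO libraries. The log2 difference of this ratio was -1.17 (exact permutation test, two-sided, p = 0.1, adjusted p = 0.17 over 5 pairs).

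RPL22L1 is a paralog of RPL22, an RNA-binding large subunit protein that is known to hold down the expression of RPL22L1. Levels of RPL22L1 were 257, 301 and 284 CPM in HCT116 against 150, 186 and 166 CPM in DNMT3B KO cells, with no overlap (log2 fold change -0.74, standard error 0.11, adjusted p = 0.0018 from edgeR). RPL22 itself was 500, 588 and 540 CPM in HCT116 against 429, 416 and 495 CPM in DNMT3B KO cells and did not pass (log2 fold change -0.28, adjusted p = 0.091). RPL22L1 counts were 51.4, 51.2 and 52.6% of RPL22 counts in HCT116 and 35.0, 44.7 and 33.6% in DNMT3B KO cells, a log2 difference of -0.47 (exact permutation test, two-sided, p = 0.1, adjusted p = 0.17 over 5 pairs). RPL22 overlaps other annotated transcripts on its strand, so its counts are less certain than those of RPL22L1, of whose 50-base stretches 99.2% are unique.

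RPL7L1, which acts in ribosome assembly, was 251 to 311 CPM in HCT116 against 269 to 276 CPM in DNMT3B KO cells (log2 fold change -0.02, adjusted p = 0.90). The sign of that small difference turned with upper-quartile scaling and without HCT116 replicate 3. RPL26L1, with 47.1% unique 50-base stretches, was 27.1 to 33.3 CPM in HCT116 against 24.2 to 26.8 CPM in DNMT3B KO cells (log2 fold change -0.21, adjusted p = 0.18). RPL3L, which replaces RPL3 in heart and skeletal muscle, had 9, 1 and 5 counts in the HCT116 libraries and 17, 20 and 14 counts in the DNMT3B KO libraries, so that the groups did not overlap, but it did not pass (adjusted p = 0.079). RPL39L and RPL10L are the paralogs best known from the testis. RPL39L had 0 counts in all 6 libraries, which allows at most 0.0416 to 0.0595 CPM per library against a floor of 3 counts, while its parent RPL39 was 521 to 688 CPM in HCT116 against 458 to 573 CPM in DNMT3B KO cells. RPL10L had 0 counts in each HCT116 library and 2, 0 and 1 in DNMT3B KO replicates 1, 2 and 3, and X-linked RPL10, its parent, fell (log2 fold change -0.38, adjusted p = 0.037 from edgeR). The floors hold for counting error alone, because no molecular identifiers are described and reads may be copies of 1 molecule.

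Levels of different members were compared per kilobase of annotated transcript (the median length of a gene's protein-coding transcripts), since the lengths expressed here are not known. In HCT116 the highest standard members were RPS2, RPS18 and RPLP0, with 3680, 3559 and 3429 CPM per kilobase, which did not differ beyond their spread. The lowest were RPL14, RPS28 and RPL36A, with 132, 257 and 364 CPM per kilobase. The value of RPL14 rests on a median length of 7072 bases and was 1150 CPM per kilobase with its shortest transcript. The order at the top also depended on the length: per kilobase of the shortest transcript, RPLP1, RPLP0 and RPS2 were highest, with 5409, 4996 and 4496 CPM, and RPS18 (3689 CPM) was below RPL8 (3980 CPM). The coefficient of variation over replicates had a median of 11.7% in HCT116 and 5.38% in DNMT3B KO cells over the 82 tested members.

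Sequence shared with pseudogenes limited how well single members could be separated. The median member had 75.2% of its 50-base stretches unique among annotated transcripts, and RPL17 had the lowest share, 3.36%. Canonical transcripts can be much longer than the other coding transcripts of a gene, and in the shortest coding transcript the median share was 69.3%, with 52.8% for RPL14 (94.0% in its canonical transcript), so the counts of RPL14 are less certain than the canonical transcript shows. Of 36 tested members with at least 80% unique stretches, 12 fell (33.3%, median log2 fold change -0.29). Of 20 with under 50%, 2 fell (10.0%, median -0.20), against 15.1% of all tested genes. With unique stretches taken from the shortest coding transcript, 11 of 27 and 5 of 26 fell (medians -0.32 and -0.22). The 1295 listed pseudogenes named after members summed to 713, 855 and 752 CPM in HCT116 against 624, 621 and 630 CPM in DNMT3B KO cells, which is 0.854 to 0.924% of the members' counts in any library. Adding their counts to the members left 25 members lower, all of them among the 25 called without them. Beside the TOP tract of the promoter, of 54 tested genes with a tract, 15 fell (median -0.28), of 12 without, 4 fell (median -0.27), and of 16 with no promoter in the table, 6 fell (median -0.32). These counts also stand beside the 15.1% of all tested genes that fell.

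Of 4 genes chosen from the ribosomal protein genes that the naming rule leaves out, RPL36AL fell and the other 3 did not pass. RPL36AL, an autosomal copy of RPL36A, was 142, 158 and 159 CPM in HCT116 against 97.1 to 107 CPM in DNMT3B KO cells (log2 fold change -0.58, standard error 0.09, adjusted p = 0.0019 from edgeR). FAU, which encodes a small subunit protein fused to a ubiquitin-like protein, had a log2 fold change of -0.14 (adjusted p = 0.31). RACK1, a scaffold protein of the small subunit, had a log2 fold change of -0.12 (adjusted p = 0.41).

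The genes that build ribosomes were examined beside the members. Of 20 tested subunits and factors of RNA polymerase I, which transcribes ribosomal RNA, 3 fell (POLR2H, TAF1D and POLR1D), 0 rose and 17 did not pass, with a median log2 fold change of -0.07. Of 75 ribosome assembly genes, 7 fell, 1 rose and 67 did not pass (median -0.10). GNL3, the nucleolar GTPase nucleostemin, was 256, 257 and 255 CPM in HCT116 against 110, 108 and 104 CPM in DNMT3B KO cells (log2 fold change -1.25, standard error 0.08, adjusted p = 2.4e-05 from edgeR). NMD3, the export adaptor of the large subunit, fell by 0.70 on the log2 scale and the kinase gene RIOK3 by 0.63, while EFL1, the GTPase that releases EIF6 from the large subunit, rose by 0.60 (adjusted p = 0.0018). The share of assembly and polymerase genes called, 11.6%, was below that of all tested genes (28.1%). The shares were closer with DESeq2 (15.8% against 18.4%) and with no filter (13.7% against 16.6%), where all genes include those with low counts. Without HCT116 replicate 2, 33 of these 95 genes were called in place of 11, a share (34.7%) near that of all genes in the same fit (34.1%), and without any single DNMT3B KO replicate 6 were called (6.32%, against 17.6 to 18.1% of all genes). Of 6 genes of proteins that bind TOP mRNAs, LARP1 among them, 0 rose and 0 fell in edgeR and in DESeq2 (median 0.03). At an unadjusted p under 0.05 TIA1 was higher and TIAL1 lower (adjusted p = 0.10 and 0.093 from edgeR). The groups overlapped in TIA1 but not in TIAL1, and no share of all genes was taken at the unadjusted threshold.

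Proteins of the mitochondrial ribosome, a separate machine that translates the mitochondrial genome, were examined as a second comparison. Of 78 tested genes, 7 fell, 0 rose and 71 did not pass (median log2 fold change -0.09), so that 8.97% were called, against 28.1% of all tested genes. The log2 fold changes were -0.53 for MRPL30 (adjusted p = 0.0029 from edgeR), -0.46 for MRPS10, -0.40 for MRPL24 and -0.33 for MRPS21. Without HCT116 replicate 2, 18 were called (23.1%, against 34.1% of all genes), and without HCT116 replicate 1 or any single DNMT3B KO replicate, 3 were called (3.85%, against 17.6 to 18.1%).

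**Figure D5:**
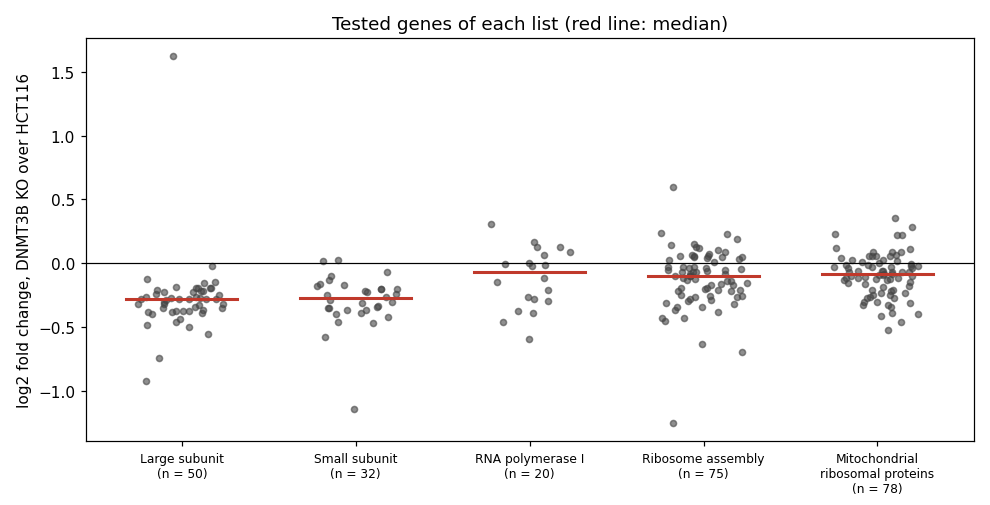
Log2 fold change of DNMT3B KO over HCT116 for the tested genes of 5 lists, with 1 point per gene and a red line at the median. The medians are -0.28 for both ribosomal subunits, -0.07 for RNA polymerase I, -0.10 for ribosome assembly and -0.09 for mitochondrial ribosomal proteins; the lowest assembly gene is GNL3 and the highest EFL1.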

How the data were processed

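RNA-seq of polyadenylated RNA was analysed in 3 HCT116 and 3 DNMT3B KO libraries, grouped by their labels. According to the methods of the study, the authors aligned reads to hg38 with STAR and quantified genes with Salmon in the nf-core/rnaseq workflow. The deposited values are estimated counts per gene, scaled for transcript length, and were rounded to whole numbers here. Totals were 55436267 to 68274783 counts per library. Reads shared by a gene and its pseudogenes are divided by the quantifier, which can move counts between them.

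Counts were scaled by TMM and filtered for low values (filterByExpr). The lines were compared with edgeR (version 4.0.16, R version 4.3.3, glmQLFTest), with Benjamini-Hochberg adjustment over all tested genes and a threshold of 0.05. Sums and ratios were compared by exact permutation of the 6 libraries (SciPy 1.17.1). Alternatives were RLE and upper-quartile scaling, TMM without ribosomal protein genes, no filter, a replicate block, each library left out, pseudogene counts added to the member, DESeq2 1.42.0 and a threshold of 0.01. Uniqueness in the shortest coding transcript was added after the values were seen. The scripts were tested on simulated data. Positions and 50-base uniqueness are from GENCODE 44 (hg38), and promoters from RefSeq. The genes named were the paralogs and their parents, the 10 other called members with the largest decrease, the 3 highest and lowest per kilobase, the stalk and 5S particle genes, genes outside the naming rule, and up to 4 called genes of each pathway list with the smallest adjusted p. RPS3A, RPL4, RPL8, RPL23A, RPS7, TIA1 and TIAL1 were singled out after their values were seen. The members and lists were chosen with earlier results of these data known. Values of some single genes are not reported here.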

Additional observations from a re-analysis of the deposited data

How the results depend on the processing

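The number of ribosomal protein genes called lower was 25, and 10 with upper-quartile scaling (12.2%, against 12.3% of all genes lower). It was 39 with DESeq2 (47%, against 10.1% of 30062 genes, low counts included), 5 at an adjusted p under 0.01 and 5 to 30 with 1 library left out. Of all tested genes, 4761 were called, 2648 at an adjusted p under 0.01 and 3049 to 5924 with 1 library left out. RNA polymerase I and assembly genes numbered 11 called, 6 at an adjusted p under 0.01 and 6 to 33 with 1 library left out, and mitochondrial ribosomal protein genes 7, 3 and 3 to 18. These fits have fewer samples or another threshold or scaling, and what else moved the counts was not tested. 0 members rose in any of the 14 fits.

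The log2 ratio of RPL26L1 to RPL26 differed by 0.06 and reversed to -0.16 without HCT116 replicate 2 (range -0.16 to 0.22 with 1 library left out). The log2 fold change of RPL7L1 reversed to 0.0648 with upper-quartile scaling and to 0.0748 without HCT116 replicate 3 (range -0.0959 to 0.0748 with 1 library left out), and that of RPS27 to -0.0083 with TMM without ribosomal protein genes and to values down to -0.0371 in 4 of the fits that leave out a library (range -0.0371 to 0.1204). The cause was not tested.

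Replicate numbers are shared by the lines, but same-numbered libraries did not deviate together (correlations 0.06, -0.01 and 0.12), so the numbers were not treated as pairs. With the replicate block, 4214 genes were called, 29 members were lower, 24 of them among the 25, and 9 assembly and polymerase genes and 5 mitochondrial ribosomal protein genes were called. RPL10 (adjusted p = 0.054) and MRPS21 (adjusted p = 0.051) were then not called.

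The 3 libraries a line limit the permutation tests to p = 0.1, and RPL3L, RPL10L and RPL39L are too shallow to compare.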
